A study of Homo sapiens with 9 samples.

Results

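Expression of 8 genes of the Notch pathway was examined: the ligand gene JAG1, the receptor genes NOTCH1, NOTCH2 and NOTCH3, and HEY1, HEYL, HES1 and HES4 of the HES and HEY families of target genes. They are a list of gene names with no threshold on a measured value, drawn up when earlier results of these data were known, and all 8 were found among the 43424 gene symbols of the deposited table. The libraries fell into 3 groups of 3. OV90CisR1 and OV90CisR2 are lines labelled resistant and grown in medium that held cisplatin, a platinum drug that crosslinks DNA. OV90, an established ovarian cancer cell line labelled sensitive, was grown in the same MCDB-105 medium with no drug named. Resistance and the presence of the drug therefore cannot be told apart, and how the resistant lines were derived, or whether they are clones, was not stated in the labels. RNA was profiled with a QuantSeq kit, which reads messenger RNA from its 3' end, so a gene's value counts transcript ends and levels of different genes were not compared.

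Notch signalling passes between touching cells. A ligand of the Jagged or Delta-like family on 1 cell binds a NOTCH receptor on its neighbour, ADAM proteases and then gamma-secretase cut the receptor, and the freed intracellular part joins the DNA-binding protein RBPJ and Mastermind co-activators in the nucleus. HES and HEY genes are its classic targets and encode basic helix-loop-helix repressors. In ovarian carcinoma the pathway has been studied in tumour growth, in stromal contact and in platinum response.

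The 9 libraries held between 5825708 and 7607679 recovered reads. A value of 3 reads corresponded to 2.62 to 3.37 normalised reads, which is the deposited unit: reads divided by a size factor per library. OV90 replicate 3 and OV90CisR1 replicate 3 stood apart from their groups, with lowest within-group Pearson correlations of 0.955 and 0.941 on the log2 scale across genes, against 0.979 and 0.980 between the other libraries of OV90 and of OV90CisR1. Member calls that change without them are given both ways. For the wider pathway list described below, the change is given mainly as counts. The labelled cell type was checked with 15 markers of ovarian carcinoma and epithelium, of which 6 had no read in OV90CisR1, 7 in OV90CisR2 and 7 in OV90. PAX8 and MUC16 had 1 read each in OV90CisR1 and 0 in OV90CisR2 and OV90. EPCAM had 140 reads in OV90CisR1, 116 in OV90CisR2 and 140 in OV90, and KRT8 had 48, 221 and 35. In the same order KRT18 had 16, 0 and 3 reads, CLDN4 26, 9 and 10, and CDH1 0, 1 and 7. Only 2 of the 15 markers passed the filter on low values, and 1 rose in OV90CisR2 against OV90 (2.35% of all tested genes rose). These markers thus gave little sign of the labelled cell type, and identity was not tested further. The labels do not state whether replicates came from separate cultures. The p-values rest on the spread among these libraries, and that spread may be technical. In bulk RNA, fewer cells that use a gene and less RNA per cell cannot be told apart.

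JAG1, which encodes the ligand Jagged1 (chromosome 20, 10637684 to 10673999, minus strand, GRCh38.p14), was higher in both resistant lines. It had 365, 363 and 242 normalised reads in OV90CisR1 replicates 1 to 3, 119.7, 126 and 144 in OV90CisR2, and 33.9, 34.1 and 13.5 in OV90. The 3 groups did not overlap, OV90CisR1 being highest and OV90 lowest, and OV90 replicate 3 was the lowest library. The log2 fold change was 3.61 ± 0.32 (SE, n = 3 per group; limma adjusted p = 0.000146) for OV90CisR1 against OV90. For OV90CisR2 against OV90 it was 2.32 ± 0.32 (limma adjusted p = 0.0023). Without OV90 replicate 3 these values were 3.19 and 1.90. The 2 comparisons share the OV90 libraries.

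JAG1 was also lower in OV90CisR2 than in OV90CisR1, with means of 129.99 ± 12.8 and 323 ± 70.5 normalised reads (SD, n = 3). The log2 fold change of OV90CisR2 against OV90CisR1 was -1.29 ± 0.32 (SE; limma adjusted p = 0.0305, and 0.00927 by edgeR's quasi-likelihood test). This call was lost without OV90CisR1 replicates 1 or 2 or any of the OV90CisR2 libraries (adjusted p 0.0825 to 0.117), while the difference kept its direction.

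**Figure D1:**
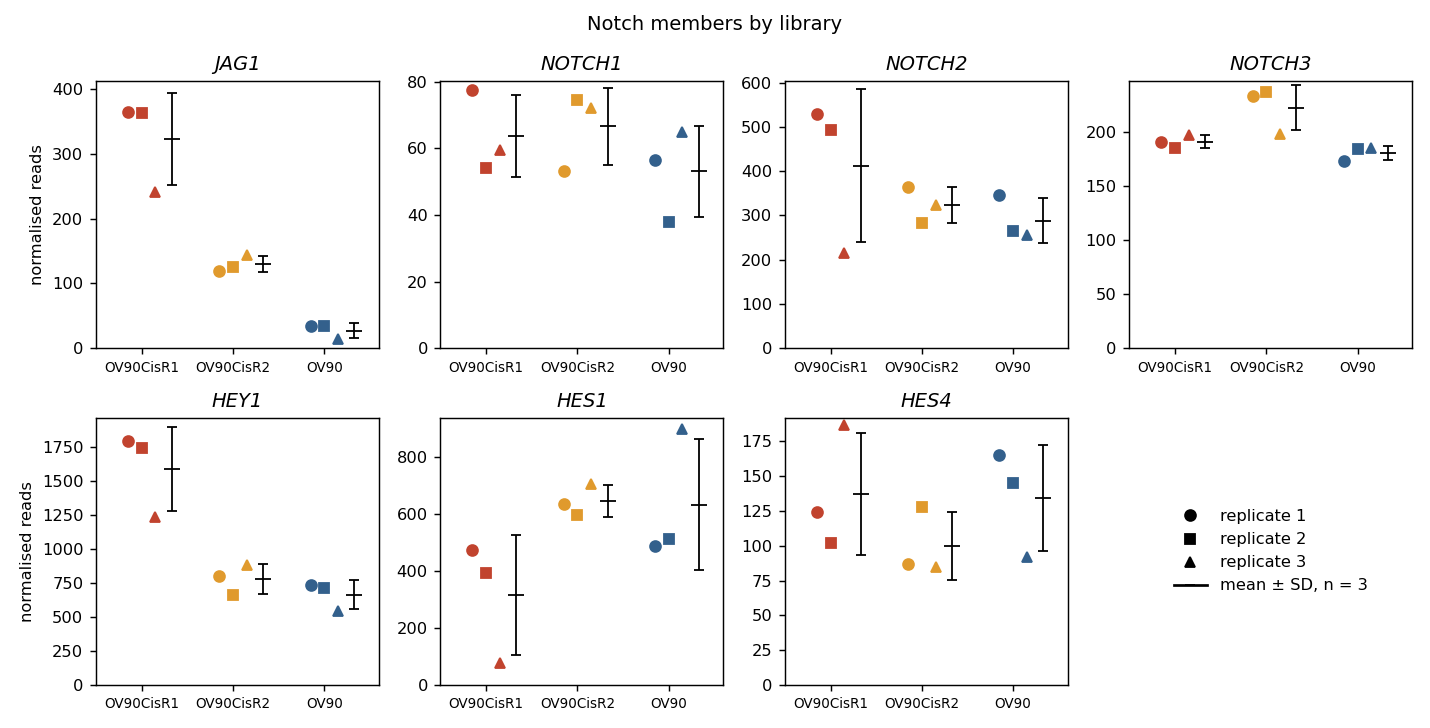
Normalised reads (y axis, starting at 0) of the 7 members with reads, by library (marker shape gives the replicate) in OV90CisR1, OV90CisR2 and OV90, with mean ± SD (n = 3) beside each group. JAG1 separates all 3 groups, HEY1 is highest in OV90CisR1, and for HES1 replicate 3 is the lowest library of OV90CisR1 (77.5) and the highest of OV90 (899).

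HEY1, which encodes a repressor of the Hairy/E(spl)-related family with a YRPW motif (chromosome 8, 79764010 to 79767767), was higher in OV90CisR1 than in both other lines. It had 1790.2, 1741 and 1235 normalised reads in OV90CisR1 replicates 1 to 3, 799 in OV90CisR2 replicate 1, 659 in replicate 2 and 878 in replicate 3, and 735, 714 and 541 in OV90. Every OV90CisR1 library lay above every other library, whereas OV90CisR2 and OV90 overlapped. The log2 fold change of OV90CisR1 against OV90 was 1.25 ± 0.18 (SE, n = 3 per group; limma adjusted p = 0.00212). That of OV90CisR2 against OV90 was 0.23 ± 0.18, with a 95% interval of -0.17 to 0.64 (limma adjusted p = 0.557). The direct comparison gave -1.02 ± 0.18 for OV90CisR2 against OV90CisR1 (limma adjusted p = 0.00705). Both calls held with each of the 9 libraries left out in turn (highest adjusted p 0.0105 and 0.0395).

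Of the 7 tested members, 2 rose in OV90CisR1 against OV90, JAG1 and HEY1, against 8.54% of all 14233 tested genes. None fell by limma, edgeR or DESeq2, against 7.29% of all genes, and 1, HES1, had an unadjusted p under 0.05. In OV90CisR2 against OV90, JAG1 rose (2.35% of all genes rose) and no member fell (0.941%), with none at an unadjusted p under 0.05 and none by edgeR or DESeq2. In OV90CisR2 against OV90CisR1, JAG1 and HEY1 fell (4.9%) and none rose (5.16%), with HES1 at an unadjusted p under 0.05 and none by edgeR or DESeq2. Groups did not overlap for 4, 2 and 4 of the 7 members in these comparisons, against 34.7%, 27% and 37.6% of all tested genes. The median log2 fold change of the members was 0.28, 0.23 and -0.25, and that of all tested genes -0.01, 0.00 and 0.03.

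**Figure D2:**
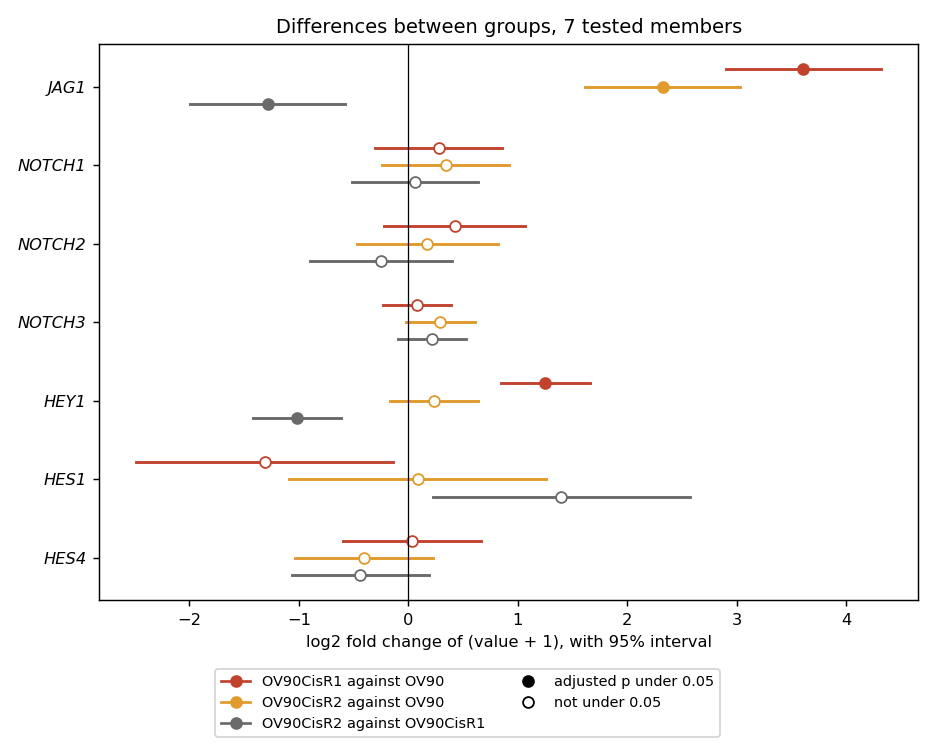
Log2 fold change of value + 1 (x axis) with its 95% interval from limma for each tested member, in OV90CisR1 against OV90, OV90CisR2 against OV90, and OV90CisR2 against OV90CisR1. Filled points passed an adjusted p of 0.05: JAG1 in all 3 comparisons, and HEY1 in both comparisons that involve OV90CisR1.

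The receptor genes were closer between groups. NOTCH1 (chromosome 9, 136494433 to 136546048, minus strand) had 77.5, 54.1 and 59.6 normalised reads in OV90CisR1 replicates 1 to 3, 53.2, 74.4 and 72.1 in OV90CisR2, and 56.6, 38.0 and 64.8 in OV90. All groups overlapped, and the 95% intervals of the log2 fold change were -0.30 to 0.85 for OV90CisR1 against OV90 (limma adjusted p = 0.485) and -0.24 to 0.92 for OV90CisR2 against OV90 (0.55). NOTCH3 (chromosome 19, 15159038 to 15200995, minus strand) had 191, 186 and 198 normalised reads in OV90CisR1, 233, 237 and 199 in OV90CisR2, and 174, 185 and 185 in OV90. Its groups did not overlap by a narrow margin, with OV90CisR2 highest and OV90 lowest. No comparison passed, the log2 fold changes being 0.08 ± 0.14 for OV90CisR1 against OV90 (SE, n = 3; limma adjusted p = 0.73) and 0.29 ± 0.14 for OV90CisR2 against OV90 (0.316).

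NOTCH2 (chromosome 1, 119911553 to 120069662, minus strand) was the receptor gene whose call depended on a library. It had 529.9, 493 and 215 normalised reads in OV90CisR1 replicates 1 to 3, 364, 283 and 324 in OV90CisR2, and 346, 265 and 255 in OV90. OV90CisR1 thus held the 2 highest libraries and, in replicate 3, the lowest. Over all libraries the log2 fold change of OV90CisR1 against OV90 was 0.42 ± 0.29 (SE, n = 3; limma adjusted p = 0.336). Without OV90CisR1 replicate 3 it was 0.84 (adjusted p = 0.00701), and without that library and OV90 replicate 3 it was 0.76 (0.00163). OV90CisR2 against OV90CisR1 gave -0.25 ± 0.29 (0.618), -0.66 (0.0244) and -0.66 (0.00217) in the same fits. The human-specific partial copies of NOTCH2 were counted as rows of their own, NOTCH2NLA, NOTCH2NLB, NOTCH2NLC and NOTCH2NLR having 9, 43, 91 and 238 reads over all 9 libraries. How shared reads were divided is not given in the sources used here, so the NOTCH2 values are uncertain to that extent. Antisense genes overlap JAG1, NOTCH1 and HEYL in the GENCODE annotation, and whether counting used strand is likewise not given.

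Promoter windows of HES1, HES4 and HEYL are shown because HES and HEY genes are the pathway's transcriptional output and RBPJ binds the letters GTGGGAA. Each window runs from 250 bases before to 50 after the RefSeq gene start on GRCh38.p14, 5′ to 3′ on the gene's strand, and capitals mark GTGGGAA or its reverse complement. The lines give HES1 (chr3:194135898-194136197, plus strand), HES4 (chr1:1000048-1000347, minus strand) and HEYL (chr1:39639594-39639893, minus strand).
HES1: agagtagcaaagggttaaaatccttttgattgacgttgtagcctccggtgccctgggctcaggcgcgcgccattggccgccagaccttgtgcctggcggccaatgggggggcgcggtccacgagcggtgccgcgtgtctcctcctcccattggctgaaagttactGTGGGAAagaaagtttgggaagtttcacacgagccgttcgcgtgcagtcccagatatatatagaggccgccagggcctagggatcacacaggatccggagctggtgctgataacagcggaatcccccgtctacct
HES4: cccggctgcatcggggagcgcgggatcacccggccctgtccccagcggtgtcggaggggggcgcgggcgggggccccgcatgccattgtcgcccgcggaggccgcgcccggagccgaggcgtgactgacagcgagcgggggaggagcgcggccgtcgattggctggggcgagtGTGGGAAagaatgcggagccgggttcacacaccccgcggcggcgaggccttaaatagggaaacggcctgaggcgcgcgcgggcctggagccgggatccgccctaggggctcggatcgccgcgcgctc
HEYL: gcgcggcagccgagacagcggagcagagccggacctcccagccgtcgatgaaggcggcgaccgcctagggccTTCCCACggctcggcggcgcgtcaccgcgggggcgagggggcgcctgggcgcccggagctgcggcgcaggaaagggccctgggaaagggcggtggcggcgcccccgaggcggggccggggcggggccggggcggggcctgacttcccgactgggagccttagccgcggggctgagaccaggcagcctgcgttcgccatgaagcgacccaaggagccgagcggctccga

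The match begins 85 bases before the start of HES1 and 77 before that of HES4, on the gene's strand in both. The longest run that these windows share, TGTGGGAAAGAA, is 12 bases long and holds the match. In HEYL it lies on the opposite strand and reaches 178 bases before the start. Windows were used for 7 of the 8 members, all but HEY1, and those of JAG1, NOTCH1, NOTCH2 and NOTCH3 had no match on either strand. Of 35116 windows of the same length, 6.25% had a match. A match is a description of letters and was not tested as a binding site.

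HES1 (chromosome 3, 194136148 to 194138732), a repressor that also represses its own gene, had 475, 395 and 77.5 normalised reads in OV90CisR1 replicates 1 to 3, 637, 597 and 708 in OV90CisR2, and 487, 514 and 899 in OV90. All OV90CisR1 libraries lay below all others, but the lowest and highest of all 9 values belonged to the libraries that stood apart. The log2 fold change of OV90CisR1 against OV90 was -1.31 ± 0.53 (SE, n = 3; limma adjusted p = 0.113). It was -1.03 without OV90 replicate 3 (0.259), -0.49 without OV90CisR1 replicate 3 (0.162) and -0.21 without both (0.22). OV90CisR2 and OV90 overlapped, with a log2 fold change of 0.09 ± 0.53 (0.956), against 0.37 (0.0246) without both libraries. OV90CisR2 against OV90CisR1 gave 1.40 ± 0.53 (0.115), against 0.57 (0.00149) without both. HES1 was thus called in both comparisons of OV90CisR2 once these libraries were omitted. With all 9 libraries kept and array quality weights in limma, it was called in OV90CisR2 against OV90CisR1 (0.75, adjusted p = 0.0184).

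HES4 (chromosome 1, 998964 to 1000097, minus strand), a HES gene that mice lack, had 124, 102 and 187 normalised reads in OV90CisR1 replicates 1 to 3, 87.0, 128 and 84.5 in OV90CisR2, and 166, 145 and 91.7 in OV90. The groups overlapped in all comparisons. The log2 fold change was 0.03 ± 0.29 for OV90CisR1 against OV90 (SE, n = 3; limma adjusted p = 0.954) and -0.41 ± 0.29 for OV90CisR2 against OV90 (0.504). The direction was opposite for OV90CisR1, at -0.46 (0.124), without the libraries that stood apart, and the value for OV90CisR2 was then -0.66 (0.0225). With all 9 libraries kept and array quality weights in limma, HES4 was also called in OV90CisR2 against OV90 (-0.69, adjusted p = 0.0133). HEYL (chromosome 1, 39623435 to 39639643, minus strand), a HEY family repressor, had 0 reads in every library and was not tested. A count of 0 allows up to 3 reads, or 0.394 to 0.515 CPM in a library, which covers counting error only.

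**Figure D3:**
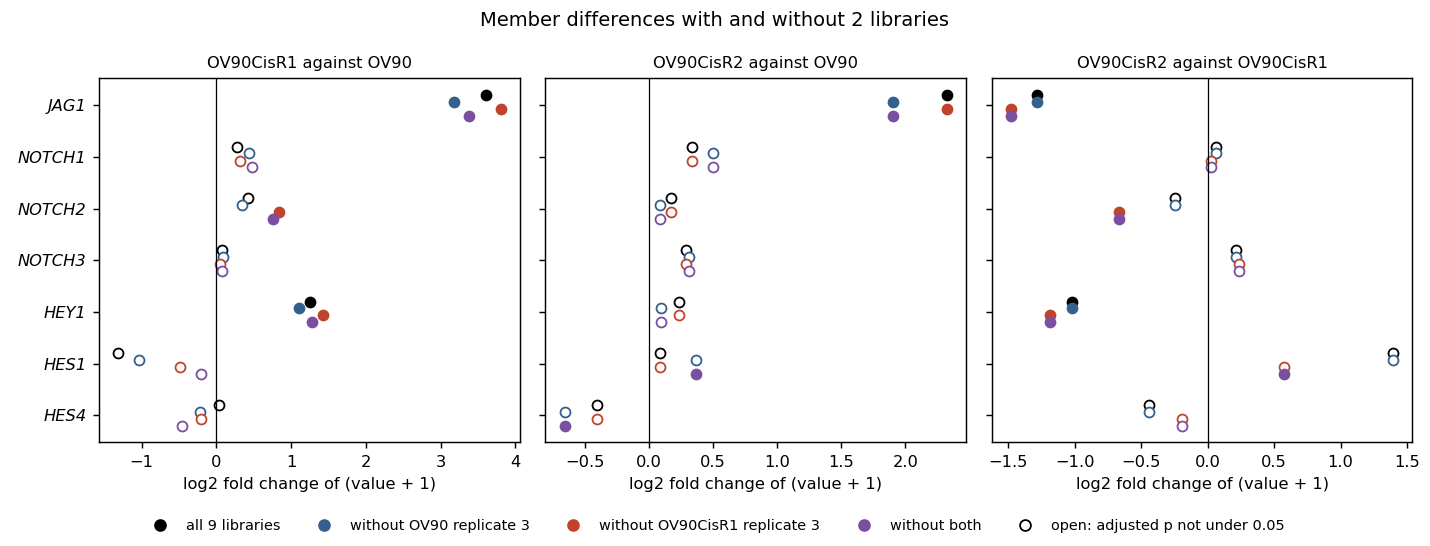
Log2 fold change of value + 1 (x axis) for each tested member over all 9 libraries, without OV90 replicate 3, without OV90CisR1 replicate 3 and without both, in the 3 comparisons. Filled points passed an adjusted p of 0.05. JAG1 and HEY1 keep their calls, while for NOTCH2, HES1 and HES4 points move or become filled when a library is omitted.

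A wider list of 88 Notch pathway genes, 75 of them tested, set the members beside the rest of the pathway. In OV90CisR1 against OV90, 10 rose and 6 fell, or 13.3% and 8% of those tested, against 8.54% and 7.29% of all tested genes, with a median log2 fold change of 0.02. In OV90CisR2 against OV90, JAG1 rose and no gene fell, or 1.33% and 0% against 2.35% and 0.941% of all tested genes. Of the 75, 17 had an unadjusted p under 0.05. EdgeR there called 2 rises and no fall, and DESeq2 5 rises and 2 falls. Unadjusted p-values under 0.05 were common among all 14233 tested genes. By limma, RFNG ranked 2293 there at 0.0418 and 4770 in OV90CisR1 against OV90 at 0.0499. KDM5A ranked 3967 in OV90CisR2 against OV90CisR1 at 0.04875. Unadjusted counts are therefore not read as a pathway result. In OV90CisR2 against OV90CisR1, 6 rose and 6 fell, or 8% each, against 5.16% and 4.9% of all tested genes. The count of 16 became 6 when OV90 replicate 1 was left out and 5 when OV90 replicate 2 was, 8 for OV90CisR1 replicate 1 and 9 for OV90CisR2 replicate 1. Without both libraries that stood apart the counts were 29, 25 and 26. Of the 16, 1 and 12 calls over all libraries, 15, 1 and 12 were kept in that fit. A gene described below as not passing over all 9 libraries may pass in that fit. The count of 1 became 2 when replicate 2 of OV90 or of OV90CisR1 was left out, 9 for OV90 replicate 3 and 8 for OV90CisR1 replicate 3. The count of 12 became 7 when OV90CisR1 replicate 1 was left out, 4 for OV90CisR2 replicate 1 or 2, and 3 for OV90CisR2 replicate 3.

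Among the ligands, JAG2 moved with JAG1 in OV90CisR1 and DLL3 moved the other way. JAG2, the second Jagged ligand, had 1066, 983 and 1257 normalised reads in OV90CisR1, 765.5, 813 and 695 in OV90CisR2, and 515, 580.1 and 943 in OV90. OV90CisR1 did not overlap the other groups, which overlapped each other. The log2 fold change of JAG2 was 0.74 ± 0.20 for OV90CisR1 against OV90 (limma adjusted p = 0.0326). This call was lost in 7 of 9 fits that left out a library (all but OV90 replicate 3 and OV90CisR1 replicate 2). It held without both libraries that stood apart (0.90, limma adjusted p = 3.34e-05). DLL3, a divergent Delta-like protein that does not activate receptors on neighbouring cells, had 281, 289.5 and 225 in OV90CisR1, 257, 266 and 284 in OV90CisR2, and 449, 398 and 354 in OV90. Both resistant lines lay below OV90, by -0.60 ± 0.15 on the log2 scale for OV90CisR1 (limma adjusted p = 0.025, lost without OV90 replicates 1 or 2) and -0.57 ± 0.15 for OV90CisR2 (0.0724, not passing). DLL1 was tested and not called, and DLL4 had 4, 5 and 0 reads in OV90CisR1, OV90CisR2 and OV90. DLK2, a non-canonical ligand, was higher in OV90CisR2 than in OV90CisR1 by 0.78 ± 0.18 (0.0193), a call lost without any of the OV90CisR2 libraries.

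None of the 4 NOTCH receptor genes was called by limma without library weights, edgeR or DESeq2 over all 9 libraries, nor had an unadjusted p under 0.05 in that limma fit. Of all tested genes, 8.54% rose and 7.29% fell in OV90CisR1 against OV90, so none called among 4 is near the share of all genes. With array quality weights in limma, NOTCH2 was called in OV90CisR1 against OV90 (0.69, adjusted p = 0.00767) and in OV90CisR2 against OV90CisR1 (-0.55, 0.0157). Among genes that act on receptor or ligand before signalling, POGLUT1, which adds glucose to the receptor's EGF repeats, had 303, 309.7 and 332 normalised reads in OV90CisR1, 203, 192 and 173 in OV90CisR2, and 185, 166 and 209.6 in OV90. Its OV90CisR1 libraries lay above all others, by 0.75 ± 0.15 on the log2 scale against OV90 (limma adjusted p = 0.00847, held with each library left out). EOGT, which adds N-acetylglucosamine to EGF repeats, rose by 0.74 ± 0.18 (0.0222). PSENEN, a gamma-secretase subunit, rose by 0.58 ± 0.17 (0.0382). MIB2, a ubiquitin ligase for ligands, rose by 1.02 ± 0.28 in OV90CisR1 (0.0322), a call absent without both libraries that stood apart (0.0659). The calls of EOGT, PSENEN and MIB2 were lost in 3, 7 and 6 of the 9 fits that left out a library. In OV90CisR2 against OV90CisR1, POGLUT1 fell by 0.73 (0.0118), the fringe glycosyltransferase RFNG by 0.86 (0.018) and PSENEN by 0.63 (0.0363). NEURL1B, another ubiquitin ligase for ligands, rose there by 0.77 ± 0.13 (0.00602) and kept its call with each library left out. The calls of POGLUT1, RFNG and PSENEN were lost in 1, 3 and 5 of those fits.

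**Figure D4:**
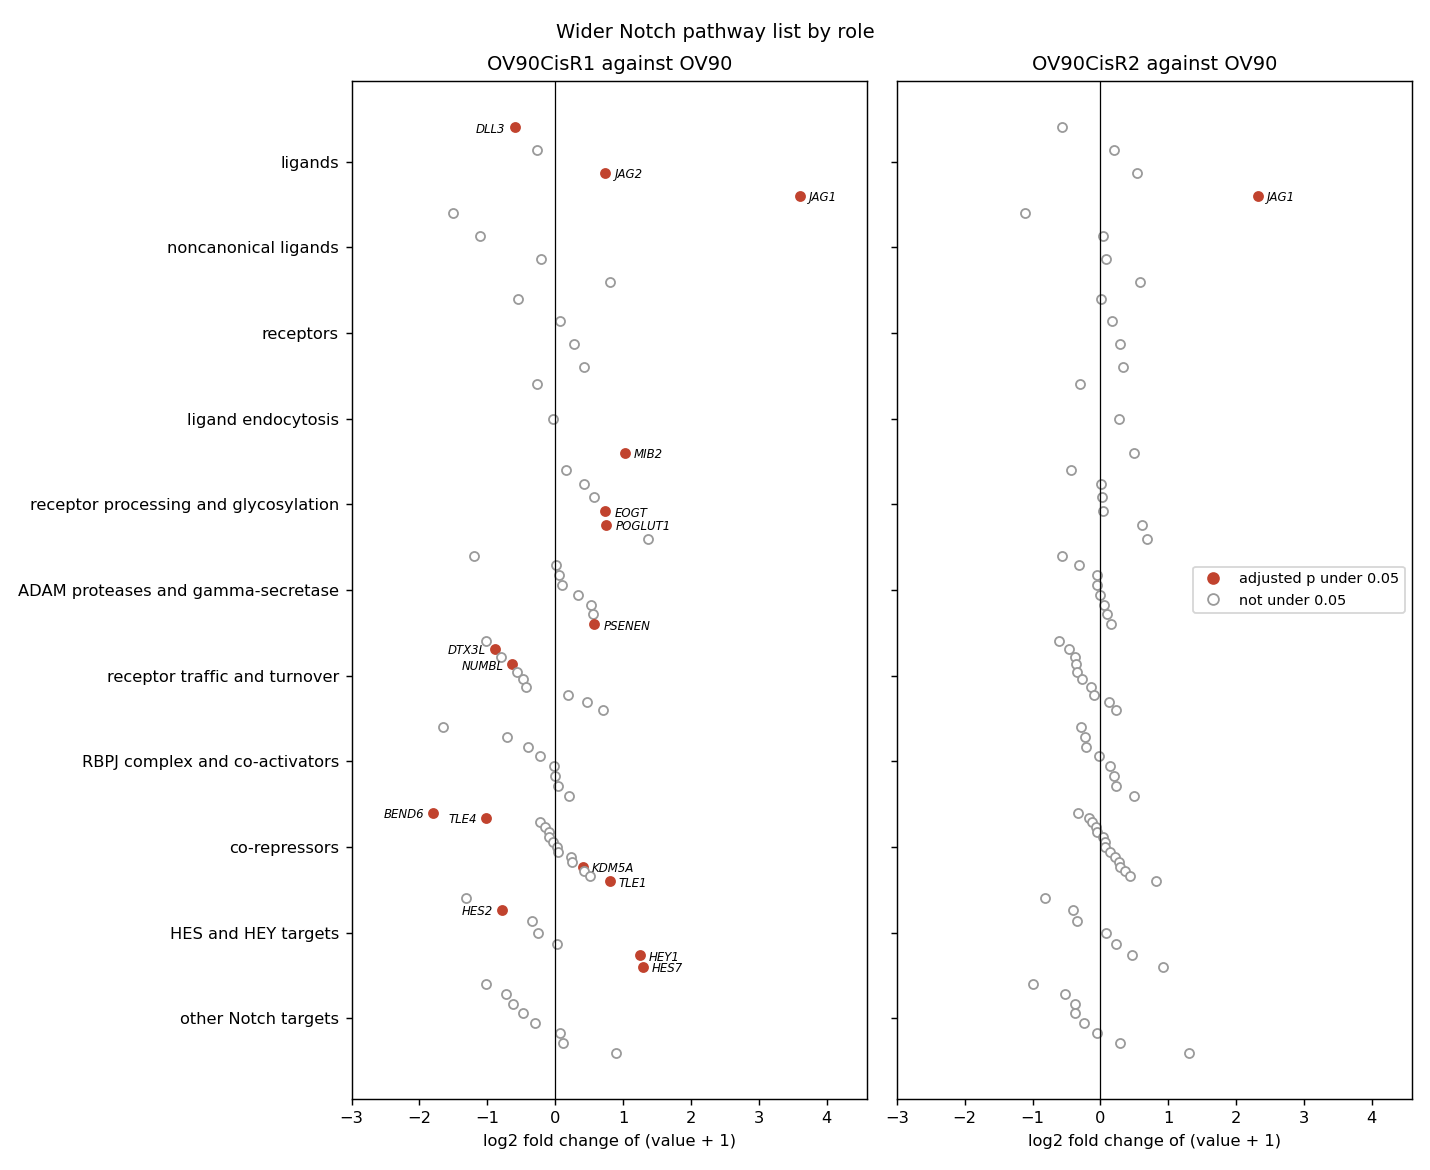
Log2 fold change of value + 1 (x axis) for tested genes of the wider pathway list, grouped by role, in OV90CisR1 against OV90 and OV90CisR2 against OV90. Filled, named points passed an adjusted p of 0.05; 16 did in OV90CisR1, and JAG1 did in OV90CisR2.

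Of 15 tested co-repressors, 2 rose and 2 fell in OV90CisR1 against OV90, where 8.54% and 7.29% of all tested genes did, and 2 rose in OV90CisR2 against OV90CisR1 (5.16%). Of 8 tested genes of the RBPJ complex and its co-activators, none was called by limma in OV90CisR1 against OV90, with 3 at an unadjusted p under 0.05, none by edgeR and 1 by DESeq2, and 2 rose in OV90CisR2 against OV90CisR1. In OV90CisR2 against OV90 limma called none of either group, where 2.35% of all tested genes rose and 0.941% fell. There 4 co-repressors had an unadjusted p under 0.05, and 1 was called by edgeR and by DESeq2. BEND6, a co-repressor that binds RBPJ, had 12.4, 19.1 and 16.8 normalised reads in OV90CisR1, 60.4, 44.6 and 64.2 in OV90CisR2, and 62.7, 76.9 and 39.6 in OV90. OV90CisR1 lay below both other groups, which overlapped. BEND6 fell by 1.80 on the log2 scale in OV90CisR1 against OV90 (limma adjusted p = 0.00444) and rose by 1.75 ± 0.31 in OV90CisR2 against OV90CisR1 (0.00622), and both calls held with each library left out. TLE4, a Groucho family co-repressor, fell by 1.02 in OV90CisR1 (0.0339) and rose by 1.24 ± 0.28 in OV90CisR2 against OV90CisR1 (0.0203). TLE1 of the same family rose by 0.80 ± 0.20 in OV90CisR1 (0.0239), and in OV90CisR2 it differed from OV90 by 0.83 ± 0.20, which did not pass (0.0527). KDM5A, a histone demethylase, rose by 0.40 ± 0.12 in OV90CisR1 (0.0402). The co-activator MAML2 rose by 1.20 ± 0.28 (0.0205) and the acetyltransferase KAT2B by 1.86 ± 0.53 (0.0494) in OV90CisR2 against OV90CisR1. KAT2B was low, with 15, 59 and 50 reads in OV90CisR1, OV90CisR2 and OV90, and 1.12 normalised reads, or 1 read, in OV90CisR1 replicate 3. Without both libraries that stood apart its log2 fold change was 1.20 (0.0376). NUMBL and DTX3L, of receptor traffic and turnover, fell by 0.63 (0.0299) and 0.88 (0.0213) in OV90CisR1 against OV90. In OV90CisR1 against OV90, the calls of TLE4, TLE1, KDM5A, NUMBL and DTX3L were lost in 7, 2, 8, 5 and 4 of the 9 fits that left out a library. In OV90CisR2 against OV90CisR1, those of TLE4, MAML2 and KAT2B were lost in 4, 4 and 7. All of these calls held without both libraries that stood apart, with DTX3L at an adjusted p of 0.000128 and TLE4 at 0.00145 in OV90CisR1 against OV90.

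Of the other HES genes, HES7 rose and HES2 fell in OV90CisR1. HES7, known from the segmentation clock of the embryo, had 155, 151 and 184 normalised reads in OV90CisR1, 114, 151 and 114 in OV90CisR2, and 43.2, 68.1 and 97.1 in OV90. Both resistant lines lay above OV90, by 1.29 ± 0.27 on the log2 scale for OV90CisR1 (limma adjusted p = 0.0112, held with each library left out) and 0.92 ± 0.27 for OV90CisR2 (0.0984, not passing). HES2 had 76.4, 87.0 and 76.4 in OV90CisR1, 80.8, 67.4 and 87.1 in OV90CisR2, and 176, 136 and 109.7 in OV90. It fell by 0.78 in OV90CisR1 against OV90 (0.0309, lost in 5 of 9 fits that left out a library), and in OV90CisR2 against OV90 the log2 fold change was -0.82 ± 0.21 (0.0651, not passing). HES6 and HEY2 were tested and not called, and HES3, HES5 and the related HELT had 0 reads in every library. HEY1, HES7 and HES2 were thus the 3 genes called in OV90CisR1 among 7 tested HES and HEY genes, where 8.54% of all tested genes rose and 7.29% fell. Of 8 other known Notch targets tested, none passed in any comparison by limma, with 4, 2 and 1 at an unadjusted p under 0.05 in the 3 comparisons. Of all tested genes, 8.54%, 2.35% and 5.16% rose and 7.29%, 0.941% and 4.9% fell, so none among 8 is near the share of all genes. These 8 include the member NOTCH3 and 1 gene also counted under receptor traffic and turnover. EdgeR called none of the 8, and DESeq2 called 1, a rise in OV90CisR2 against OV90.

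The patterns closest to those of JAG1 and HEY1 over the 9 libraries were sought among 7111 other tested genes with a mean above the median. The measure was the root-mean-square distance between log2 values after each gene was centred on its own mean. TFPI, an inhibitor of coagulation, and KCNJ2, a potassium channel, lay closest to JAG1, at 0.61 and 0.76 (median over the genes 1.59). NAGLU and PPT2, both lysosomal enzymes, lay closest to HEY1, at 0.20 and 0.20 (median 0.65). NAGLU averaged 359 ± 17.5, 167 ± 5.89 and 142.5 ± 27.8 normalised reads (SD, n = 3) in OV90CisR1, OV90CisR2 and OV90.

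Stromal and endothelial cells also use JAG1 and HEY1, so their markers were read beside these results. The summed level of 8 fibroblast markers was 7241 to 12054 normalised reads in OV90CisR1, 4396 to 5734 in OV90CisR2 and 3978 to 5297 in OV90, and COL3A1 gave most of it. None of the 8 was at 0 in any group. Of the 7 tested, 2 rose and none fell in each resistant line against OV90. Of all tested genes, 8.54% rose in OV90CisR1 and 2.35% in OV90CisR2. LUM had 225, 1391 and 131 reads and DCN 228, 685 and 114 in OV90CisR1, OV90CisR2 and OV90. In the same order COL3A1 had 24794, 11184 and 9804, COL1A2 11, 2 and 3, and PDGFRA 31, 25 and 22. COL1A1 had 244, 327 and 367, PDGFRB 252, 373 and 310, and THY1 3656, 3030 and 3376, so the markers did not move together. In OV90CisR2 against OV90CisR1, 2 fibroblast markers rose and 1 fell, where 5.16% and 4.9% of all tested genes did. Of 7 endothelial and mural markers, PECAM1, VWF and KDR had 0 reads in every library, and the summed level was 9.30 to 14.8 in OV90CisR1, 20.1 to 21.1 in OV90CisR2 and 13.5 to 32.1 in OV90. The 6 leukocyte markers summed to 71.9 to 135 in OV90CisR1, 33.2 to 45.03 in OV90CisR2 and 24.3 to 69.9 in OV90, with CD3E at 0 reads. Only 1 of them was tested, and it fell in OV90CisR2 against OV90CisR1 (4.9% of all tested genes fell). The part of the fibroblast and leukocyte markers in the JAG1 and HEY1 results was not tested.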

How the data were processed

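The authors deposited a table of normalised values for 43424 gene symbols in 9 libraries, a signal on a scale of reads. Bowtie2, bedtools, edgeR and the build GRCh38 are named in the submitters' processing notes. The sources used here give no versions, annotation or counting rules. Dividing each column by its lowest nonzero value gave whole numbers throughout (100% of values, tolerance 1e-06). These are taken as reads, and the factors equalled median-of-ratios size factors. Genes with at least 1 CPM in 3 libraries were kept, 14233 in all. Values were tested across all genes as log2(value + 1), a scale that understates changes of low genes, with limma (3.58.1; R 4.3.3), using a variance trend, group means over all 9 libraries and Benjamini-Hochberg adjustment over all tested genes at 0.05. The procedure was run on simulated data with the same spread in every library. No simulated library stood apart, so that run does not cover libraries that do.

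The named genes are the 8 members, every gene of the wider list that passed in some comparison, the ligand, receptor, HES and HEY genes below the filter, and the 2 nearest patterns of each member called; 1 gene of the wider list is counted but not reported here. Members, lists and alternatives were chosen with earlier results of these data known. Alternatives were pseudocounts of 0.1 and 5, no filter and 5 CPM, quantile and TMM scaling, fits of only the groups compared, a replicate block, other variance estimates, array quality weights, edgeR 4.0.16 and DESeq2 1.42.0 on the recovered reads, each library left out, and omission of the 2 libraries that stood apart. On the recovered reads edgeR called 2286 genes in OV90CisR1 against OV90, 506 in OV90CisR2 against OV90 and 1515 in OV90CisR2 against OV90CisR1. Replicate pairs differed by more than counting noise (smallest chi-square per degree of freedom 2.04). Promoter windows and gene positions are from RefSeq on GRCh38.p14, which held all 8 gene positions and 7 windows. No protein sequence was used here.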

Additional observations from a re-analysis of the deposited data

Results flagged for a closer look

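The effect against OV90 differed between the resistant lines for JAG1 and HEY1, by the direct test of OV90CisR2 against OV90CisR1. For JAG1 the difference was -1.29 on the log2 scale (limma adjusted p = 0.0305; all 3 OV90CisR2 libraries lay below all 3 OV90CisR1 libraries). That call was lost in 5 of the 9 fits that left out a library (adjusted p up to 0.117) and without the variance trend (0.0607). For HEY1 it was -1.02 (limma adjusted p = 0.00705; again all 3 libraries lay below), and the call held in all 9 of those fits. Dixon's test of outlying values was not run on groups of 3.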

How the results depend on the processing

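Of 483 recomputed member values, 457 kept their direction and side of the threshold, among them all of JAG1 and HEY1 against OV90. JAG1 between the resistant lines no longer passed without the variance trend (adjusted p = 0.0607; 1 member then called) or when any of 5 libraries was left out. Values that changed sign had not been called: HES4 in OV90CisR1 against OV90 was -0.38 with quality weights, -0.22 without OV90 replicate 3, -0.21 without OV90CisR1 replicate 3 and -0.46 without both, with a highest value of 0.22 when a library was left out. HES1 in OV90CisR2 against OV90 was -0.074 and -0.036 without OV90 replicates 1 and 2, with a highest value of 0.37. NOTCH1 between the resistant lines was -0.044, -0.023 and -0.0012 without OV90CisR1 replicate 2 and OV90CisR2 replicates 2 and 3, with a highest value of 0.21.

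In the order OV90CisR1 against OV90, OV90CisR2 against OV90 and OV90CisR2 against OV90CisR1, all-gene calls were 2252, 468 and 1433. They were 4220, 3538 and 4226 with quality weights and 3879, 3646 and 3729 without the 2 libraries that stood apart. Member calls with quality weights were 3, 2 and 4, pathway calls 30, 23 and 26. Without the 2 libraries, 3, 3 and 4 members and 29, 25 and 26 pathway genes were called. Fits of only the groups compared gave 817, 709 and 1750 genes and 5, 5 and 14 of the pathway. DESeq2 called 878 genes in the second comparison and 7 of the pathway. That pathway count was 4 with quantile scaling and 2 with a pseudocount of 5, no filter, robust variance or edgeR. With a library left out, all-gene calls ranged from 939 to 2459, 133 to 1309 and 391 to 2324, member calls from 2 to 3, 1 to 1 and 1 to 3, and pathway calls from 5 to 17, 1 to 9 and 3 to 16. The cause of these changes was not tested.

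Replicate numbers gave no sign of pairing: none of the 9 correlations of deviations between same-numbered libraries exceeded 0.1 (-0.31 to 0.09). Between differently numbered libraries they ran from -0.20 to 0.34, the highest for OV90CisR1 replicate 3 with OV90CisR2 replicate 2. Deviations within groups of 3 cannot settle whether libraries were handled together. The replicate block gave 1615, 287 and 875 calls over all genes, the same member counts of 2, 1 and 2, and 12, 1 and 9 pathway calls. HEYL had no reads, and its absence is limited by depth.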
